A study of Mus musculus with 8 samples.

Results

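This account covers 9 genes: the chains of the CD3 signalling module (Cd247, Cd3d, Cd3e and Cd3g), the chains of the CD8 co-receptor (Cd8a and Cd8b1) and the kinases that act on them (Lck, Fyn and Zap70). They were chosen by symbol, and all 9 were found among the 13245 genes listed. Expression was measured by RNA-seq in CD8 T cells of mouse lymph node that were positive for Ly6C and CXCR3, surface proteins of memory phenotype cells. Of the 8 libraries, 4 came from CD103Tg mice, which overexpress CD103 (integrin alpha E, gene Itgae). The other 4 libraries came from B6 (C57BL/6) mice, the wild type. The transgene's promoter, the age of the mice and whether RNA was pooled are not given in the sources used here. Whether each replicate is a different mouse is not stated either, and the p-values below reflect the spread among these libraries, part of which may be technical.

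The T cell receptor has no signalling domain of its own. It is assembled with dimers of CD3 epsilon with CD3 delta, of CD3 epsilon with CD3 gamma, and of the zeta chain with itself. The cytoplasmic tails of these chains carry immunoreceptor tyrosine-based activation motifs (ITAMs). CD8, a dimer of an alpha and a beta chain or of alpha chains, binds MHC class I and carries the kinase Lck on the tail of the alpha chain. Lck, and to a lesser extent its relative Fyn, phosphorylates the ITAM tyrosines, and Zap70 then docks on them and is activated in turn.

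The zeta chain's RNA is the one that differed most between the groups, and the number of ITAMs sets it apart from the other chains. A search of the coding sequence of each principal transcript (GENCODE M21, GRCm38) for a tyrosine, any pair of residues and a leucine or isoleucine, repeated after a short spacer, found 3 ITAMs in Cd247 (164 codons). It found 1 each in Cd3d (173 codons), Cd3e (189 codons) and Cd3g (182 codons), and 0 in Cd8a, Cd8b1, Lck, Fyn and Zap70. The segments are shown 5′ to 3′ on the coding strand, with the 2 tyrosine codons that become phosphorylated in capitals; the Cd247 segments lie at codons 72 to 86, 111 to 126 and 142 to 156.
Cd247 first ITAM: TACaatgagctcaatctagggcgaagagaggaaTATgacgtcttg
Cd247 second ITAM: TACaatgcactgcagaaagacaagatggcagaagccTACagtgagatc
Cd247 last ITAM: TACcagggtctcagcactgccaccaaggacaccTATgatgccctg
Cd3d ITAM: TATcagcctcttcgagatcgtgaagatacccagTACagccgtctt
Cd3e ITAM: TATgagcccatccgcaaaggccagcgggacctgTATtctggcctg
Cd3g ITAM: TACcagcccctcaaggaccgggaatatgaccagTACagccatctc
The second Cd247 segment is 48 bases long and the other 5 are 45 bases long.

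The libraries held 50187279 to 56371476 estimated reads over the listed genes, so that 1 read was worth 0.0171 to 0.0203 CPM (counts per 1e6, on TMM-scaled library sizes). Itgae had 3469, 4692, 4169 and 5509 CPM in the CD103Tg libraries, against 41.4, 51.4, 37.5 and 174 CPM in the B6 libraries, which fits the labels. B6 replicate 4 stood apart from the other B6 libraries in Itgae, and results are also given without it where that ends a call or adds one. Of 11503 genes that averaged 1 CPM or more, 31.2% passed the test of CD103Tg against B6 (limma, Benjamini-Hochberg adjusted p under 0.05), 17.4% as higher and 13.8% as lower in CD103Tg. In 31.0% of genes the 4 CD103Tg libraries did not overlap the 4 B6 libraries. All 9 members passed the filter; 2 of them rose (Cd247 and Fyn), 1 fell (Cd8a) and 6 did not pass, and the same 3 were those without overlap between the groups. With all libraries in the fit, the share of called members was close to that of all genes. Without B6 replicate 4 or without CD103Tg replicate 1, 2 members fell in place of 1, so more members were called. The median log2 fold change was 0.04 over the members and −0.01 over all genes tested, and the median size of change, whatever its direction, was 0.11 over the members and 0.16 over all genes.

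**Figure D1:**
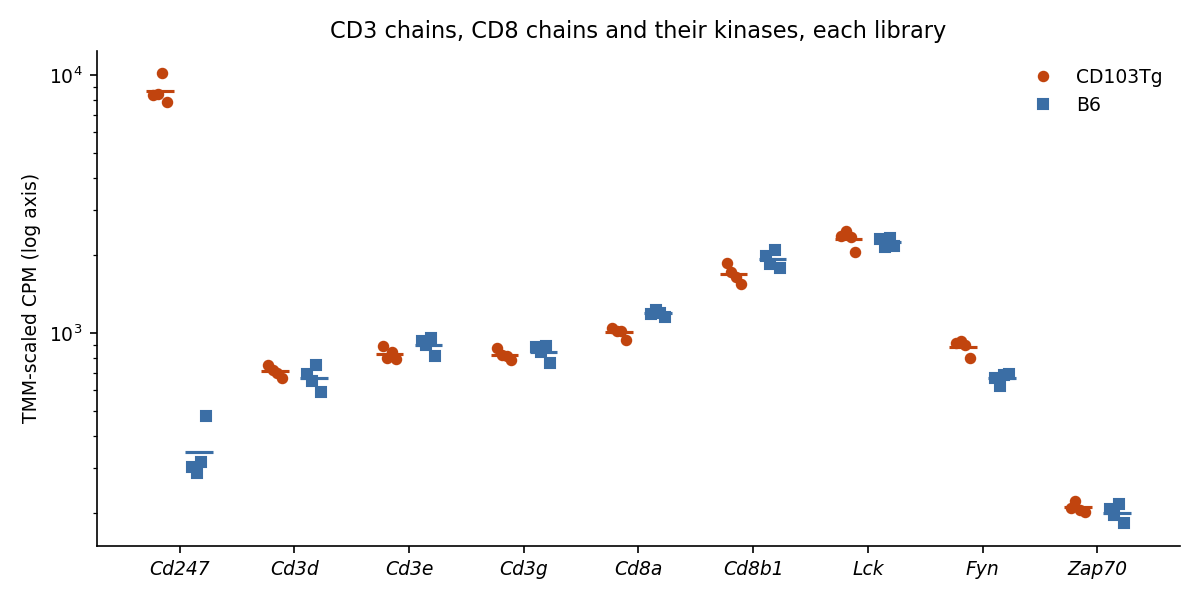
TMM-scaled CPM (log axis) of the 9 genes in each of the 4 CD103Tg libraries (circles) and the 4 B6 libraries (squares), with a line at each group mean. Cd247 lies between 7877 and 10164 CPM in CD103Tg and between 285 and 478 CPM in B6, and of the other 8 genes only Cd8a and Fyn separate the groups.

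Among the CD3 chains, Cd247 rose and the other 3 did not pass. Cd247 (chromosome 1, 165788681 to 165877277, plus strand, GRCm38) encodes the zeta chain. It had 8341, 8462, 10164 and 7877 CPM in the CD103Tg libraries, against 303, 285, 315 and 478 CPM in the B6 libraries. Every CD103Tg library was more than an order of magnitude above every B6 library. The means were 8711 ± 1001 CPM in CD103Tg and 345 ± 89.2 CPM in B6 (SD, n = 4 each). In the limma fit this was a log2 fold change of 4.68 ± 0.15 (SE, adjusted p = 3.03e-08), a 25.6-fold difference with a 95% interval of 20.5 to 32.0. Only 1 of the 11503 genes tested had a larger log2 fold change in either direction. Cd247 ranked number 2 of all genes by mean CPM in CD103Tg and number 459 in B6, with 0.863% and 0.0350% of the signal.

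In the B6 group, replicate 4 was highest for Cd247 at 478 CPM and also highest for Itgae. Without that library the log2 fold change of Cd247 was 4.84, and the gene kept its call. Above the median of the other 3 B6 libraries, replicate 4 had an excess of 175 CPM of Cd247 and 132 CPM of Itgae. These are 2.08% and 3.00% of the distance from that median to the CD103Tg mean. Of the 3 genes whose pattern was most like that of Cd247 (named at the end), the same share was 3.53% for Fgl2, −0.235% for Ifi44 and −0.613% for Lgals3. Whether that library held CD103Tg material was not tested. Of the 5329 exon bases of Cd247, 3007 (56.4%) overlap exons of Pou2f1, a gene of the opposite strand, and the library kit used does not mark strand. Pou2f1 itself had 17.3 ± 1.96 CPM in CD103Tg and 18.6 ± 4.11 CPM in B6 (log2 fold change −0.08, limma adjusted p = 0.706), far below the Cd247 level of either group. The sign of that small difference turned without B6 replicate 4, to 0.039.

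Cd3d, Cd3e and Cd3g lie together on chromosome 9, and the 5′ ends of Cd3d and Cd3g are 1355 bases apart on opposite strands. Cd3d (chromosome 9, 44981786 to 44987339, plus strand) encodes the delta chain. It had 751, 720, 699 and 670 CPM in CD103Tg, against 696, 649, 752 and 589 CPM in B6, and the groups overlapped. Its log2 fold change was 0.08 ± 0.07 (95% interval −0.08 to 0.25, limma adjusted p = 0.431). Cd3e (chromosome 9, 44998740 to 45009627, minus strand) encodes the epsilon chain, shared by both CD3 dimers. Its values were 889, 801, 841 and 791 CPM in CD103Tg, against 929, 898, 959 and 814 CPM in B6. Most B6 libraries were above the CD103Tg ones, but B6 replicate 4 fell within their range. The log2 fold change of Cd3e was −0.11 ± 0.07 (95% interval −0.26 to 0.03, limma adjusted p = 0.212). Cd3g (chromosome 9, 44969572 to 44980431, minus strand) encodes the gamma chain. It had 876, 823, 813 and 786 CPM in CD103Tg, against 884, 844, 889 and 766 CPM in B6, again with overlap. Its log2 fold change was −0.04 ± 0.06 (95% interval −0.17 to 0.10, limma adjusted p = 0.714). The intervals of all 3 chains leave room for small changes, and the largest change within them is a decrease of 0.26 for Cd3e on the log2 scale.

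Of the CD8 chains, Cd8a fell slightly and Cd8b1 did not pass. The cells were selected as CD8 T cells, so the presence of these transcripts follows from the selection and only their difference between groups is informative. Cd8a (chromosome 6, 71373427 to 71379173, plus strand) encodes the alpha chain, whose tail binds Lck. It had 1044, 1018, 1018 and 944 CPM in CD103Tg, against 1189, 1228, 1197 and 1150.4 CPM in B6. All CD103Tg libraries were below all B6 libraries. The log2 fold change was −0.24 ± 0.05 (95% interval −0.36 to −0.12, limma adjusted p = 0.00602), and CD103Tg had 0.845 times the B6 level. Cd8b1 (chromosome 6, 71322788 to 71337494, plus strand) encodes the beta chain, which raises the affinity of CD8 for MHC class I. Its values were 1861, 1717, 1643 and 1544 CPM in CD103Tg, against 1994, 1856, 2098 and 1788 CPM in B6. The groups overlapped only through CD103Tg replicate 1, which exceeded 2 B6 libraries. The log2 fold change of Cd8b1 was −0.19 ± 0.08 (95% interval −0.36 to −0.02, limma adjusted p = 0.0792). It passed without CD103Tg replicate 1 (−0.24, limma adjusted p = 0.0461) and without B6 replicate 4 (−0.23, limma adjusted p = 0.0489). It also passed when libraries were scaled to equal totals (−0.22, limma adjusted p = 0.0233) or quantile normalized (−0.30, limma adjusted p = 0.00200). In bulk RNA from sorted cells, fewer cells with a transcript and less of it per cell cannot be told apart.

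Of the kinases, Fyn rose and Lck and Zap70 did not pass. Fyn (chromosome 10, 39368855 to 39565381, plus strand) is a Src family kinase that associates with the CD3 chains. It had 912, 928, 897 and 801 CPM in CD103Tg, against 669, 624, 689 and 693 CPM in B6. The lowest CD103Tg library was above the highest B6 library. Its log2 fold change was 0.40 ± 0.06 (95% interval 0.27 to 0.54, limma adjusted p = 0.000587), a 1.32-fold difference. Lck (chromosome 4, 129548344 to 129573641, minus strand) is the Src family kinase bound to CD8 alpha. Its values were 2384, 2480, 2366 and 2058 CPM in CD103Tg, against 2322, 2164, 2333 and 2176 CPM in B6. CD103Tg replicate 4 was the lowest of all 8 libraries and the other 3 CD103Tg libraries were the highest. The log2 fold change of Lck was 0.04 ± 0.07 (95% interval −0.12 to 0.20, limma adjusted p = 0.698), and it turned to −0.024 after quantile normalization. Zap70 (chromosome 1, 36761798 to 36782818, plus strand) is the Syk family kinase that binds phosphorylated ITAMs through paired SH2 domains. It had 210.2, 224, 206 and 203 CPM in CD103Tg, against 209, 197, 217 and 183 CPM in B6, with overlap. Its log2 fold change was 0.07 ± 0.06 (95% interval −0.07 to 0.20, limma adjusted p = 0.440).

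**Figure D2:**
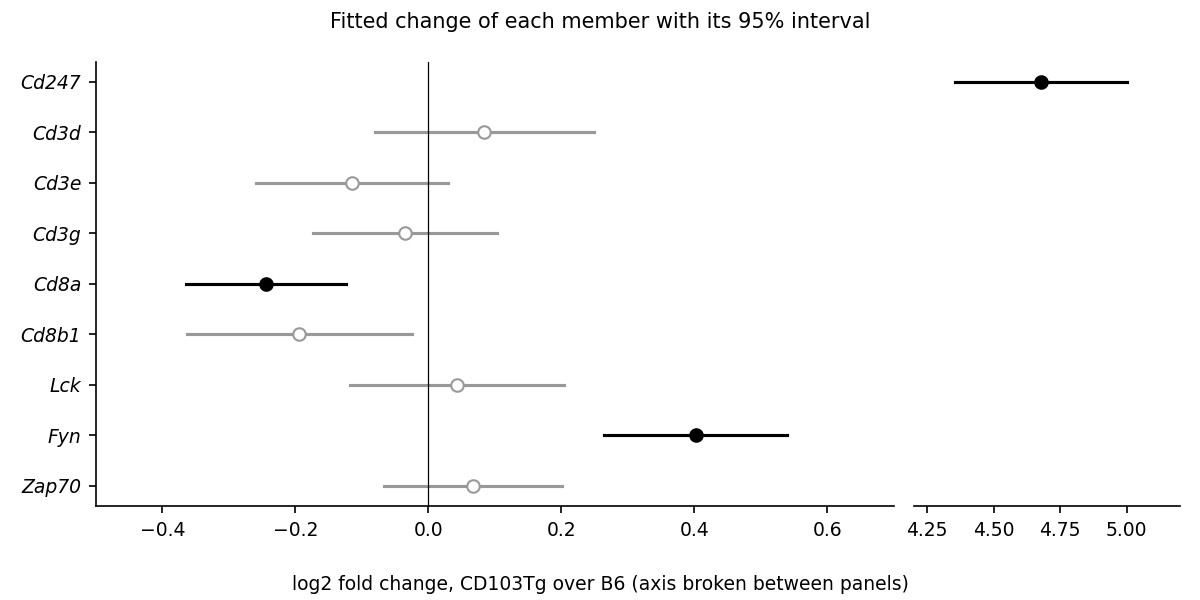
Fitted log2 fold change (CD103Tg over B6) of each gene, on a broken horizontal axis, with its 95% interval; filled black points passed an adjusted p of 0.05 and open grey points did not. Cd247 stands at 4.68, Fyn at 0.40 and Cd8a at −0.24, and the intervals of the other genes except Cd8b1 include 0.

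The 3 genes that passed are on different chromosomes, and the 250 bases before a RefSeq transcript start of each are shown to compare their letters (GRCm38.p6, plus strand). Where RefSeq has several starts for a gene, the one nearest the 5′ end of its principal transcript was used, so a window can lie inside the outer bounds of the gene given above, as for Fyn and Lck. Lck has 2 such starts and Zap70 has 3, and windows at the others were not counted. Windows were matched by symbol for 8 of the 9 members, and none was matched for Cd8b1. GGAA, the core bound by ETS family factors, and its complement TTCC are in capitals.
Cd247, chr1:165788431-165788680: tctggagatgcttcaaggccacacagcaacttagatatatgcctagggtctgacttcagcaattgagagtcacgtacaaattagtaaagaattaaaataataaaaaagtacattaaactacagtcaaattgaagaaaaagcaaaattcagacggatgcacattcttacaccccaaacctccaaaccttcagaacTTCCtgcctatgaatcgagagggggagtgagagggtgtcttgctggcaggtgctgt
Cd8a, chr6:71373177-71373426: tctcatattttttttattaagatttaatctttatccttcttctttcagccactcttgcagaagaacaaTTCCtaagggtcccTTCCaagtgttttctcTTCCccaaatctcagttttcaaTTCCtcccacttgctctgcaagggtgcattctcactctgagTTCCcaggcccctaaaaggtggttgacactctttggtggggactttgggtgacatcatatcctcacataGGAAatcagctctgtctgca
Fyn, chr10:39369549-39369798: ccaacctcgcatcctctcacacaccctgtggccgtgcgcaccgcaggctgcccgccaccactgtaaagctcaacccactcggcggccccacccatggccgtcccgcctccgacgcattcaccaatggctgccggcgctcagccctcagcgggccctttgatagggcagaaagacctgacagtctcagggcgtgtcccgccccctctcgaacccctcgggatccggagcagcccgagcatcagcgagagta
The core GGAA, read on both strands, occurred 1 time before Cd247, 0 times before Fyn and 6 times before Cd8a. Among members that did not pass it occurred 6 times before Cd3d, 5 times before Cd3e, 2 times before Cd3g, 3 times before Lck and 8 times before Zap70. Of 32851 such windows in the genome, 93.4% held it at least once. The core TGTGGT, bound by Runx factors, was found in none of the 8 windows and in 14.0% of all windows. These are letters in one short window for each gene, and no binding was measured.

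The members were next set against each other within each library, as ratios of CPM, which do not depend on how a library was scaled. With 4 libraries in each group the exact permutation test (two-sided, 70 assignments) cannot give a p below 0.0286. Of 8 ratios, 6 did not overlap between the groups, each higher in CD103Tg, with an exact permutation p of 0.0286 and an adjusted p over the 8 ratios of 0.0381. The ratios share members, so they are not independent of each other. Across all other genes tested, the groups did not overlap in 30.7% of ratios to Cd3e, 48.7% of ratios to Cd8a, 35.0% of ratios to Cd8b1 and 24.6% of ratios to Lck.

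The ratio of Cd247 to Cd3e was 9.38, 10.6, 12.1 and 9.96 in the CD103Tg libraries, against 0.326, 0.318, 0.328 and 0.587 in the B6 libraries. The zeta chain transcript thus exceeded the epsilon chain transcript in CPM in every CD103Tg library and was below it in every B6 library. The log2 difference was 4.80, and it was 5.01 without B6 replicate 4. The ratio of Cd3d to Cd3e was 0.856 ± 0.0301 in CD103Tg and 0.745 ± 0.0285 in B6 (SD, n = 4 each), a log2 difference of 0.20. That of Cd3g to Cd3e was 0.993 ± 0.0262 in CD103Tg and 0.940 ± 0.01001 in B6, a log2 difference of 0.08. Both dimer partners of the epsilon chain were thus a little higher against it in CD103Tg, although none of the 3 genes passed alone. Zap70 against Cd3e was 0.254 ± 0.0188 in CD103Tg and 0.224 ± 0.00299 in B6, a log2 difference of 0.18.

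For the co-receptor, Cd8a to Cd8b1 was 0.596 ± 0.0260 in CD103Tg and 0.618 ± 0.0419 in B6 (log2 difference −0.05, exact permutation p = 0.429). This ratio overlapped between the groups, so a shift between the alpha and beta chain transcripts was not detectable. Cd8a to Cd3e was 1.21 ± 0.0424 in CD103Tg and 1.33 ± 0.0769 in B6 (log2 difference −0.13, exact permutation p = 0.0571, adjusted p = 0.0653), also with overlap. Lck to Cd8a was 2.31 ± 0.105 in CD103Tg and 1.89 ± 0.0890 in B6, a log2 difference of 0.29. Fyn to Lck was 0.381 ± 0.00613 in CD103Tg and 0.297 ± 0.0144 in B6, a log2 difference of 0.36. The Lck transcript was thus higher in CD103Tg relative to that of Cd8a, and the Fyn transcript relative to that of Lck. Lck alone did not pass, while Cd8a fell and Fyn rose. For all other genes tested, 48.7% of ratios to Cd8a and 24.6% of ratios to Lck did not overlap between the groups.

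**Figure D3:**
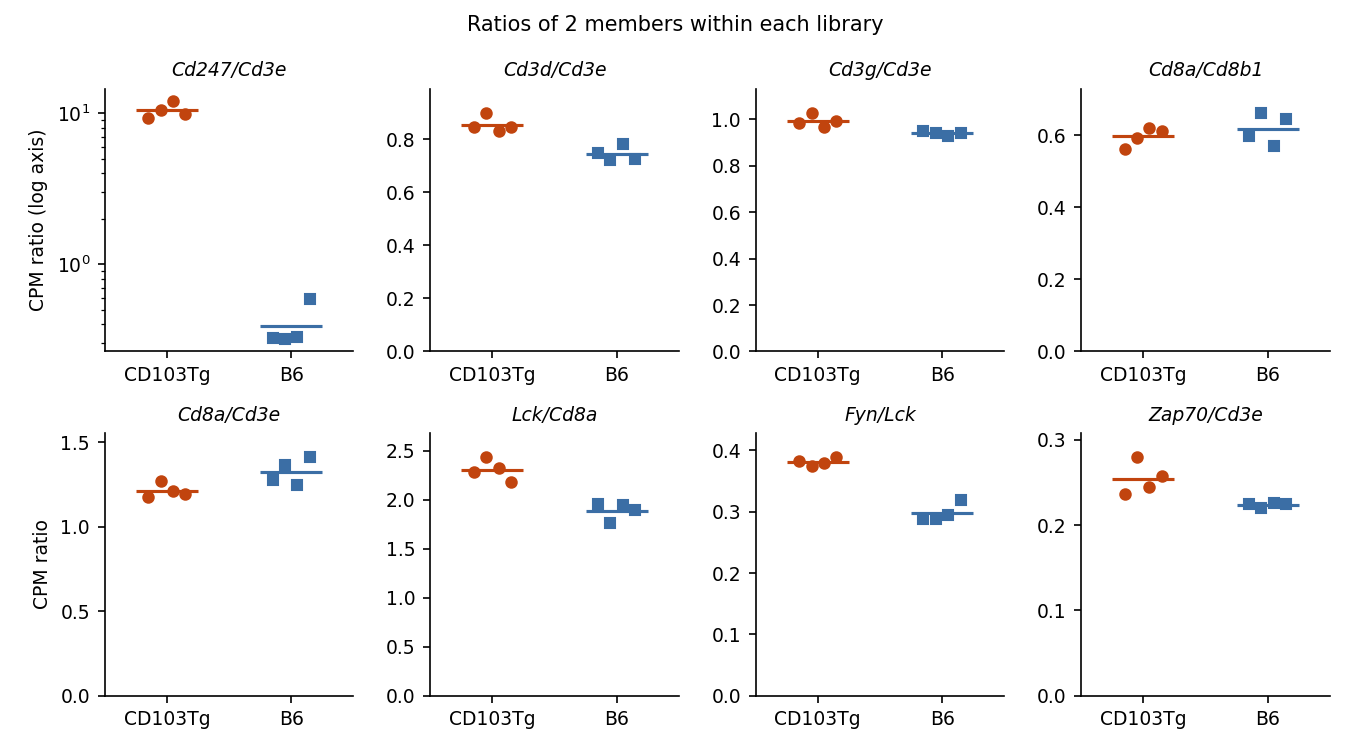
Ratio of CPM of 2 genes within each library, 1 panel for each ratio, with the CD103Tg libraries (circles) left of the B6 libraries (squares) and a line at each group mean; the Cd247/Cd3e panel has a log axis and the others start at 0. Cd247/Cd3e lies between 9.38 and 12.1 in CD103Tg and between 0.318 and 0.587 in B6, and the 2 ratios that overlap are Cd8a/Cd8b1 and Cd8a/Cd3e.

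Levels of different genes were compared per kilobase of annotated exon, as CPM per kb over the union of a gene's exons. In CD103Tg the order from high to low was Cd247 (1635 ± 188), Cd8b1 (1140 ± 90.3), Lck (793 ± 62.4), Cd3d (391 ± 18.9), Cd8a (277 ± 11.96), Cd3g (252 ± 11.6), Cd3e (204 ± 11.02), Fyn (203 ± 13.1) and Zap70 (70.5 ± 3.05 CPM per kb; SD, n = 4 each). In B6 it was Cd8b1 (1304 ± 93.6), Lck (768 ± 31.1), Cd3d (370 ± 38.1), Cd8a (327 ± 8.78), Cd3g (259 ± 17.5), Cd3e (221 ± 15.4), Fyn (153 ± 7.26), Zap70 (67.3 ± 4.92) and Cd247 (64.8 ± 16.7 CPM per kb). Over the union of exons the order of the other 8 genes was the same in both groups, and Cd247 stood at opposite ends of it. Neighbours whose ranges overlapped were Cd8a with Cd3g and Cd3e with Fyn in CD103Tg, and Cd3d with Cd8a, Cd3g with Cd3e and Zap70 with Cd247 in B6.

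The length chosen moved these levels by more than 1.5 times for Cd247, Cd3e and Cd3g. The union of Cd247 exons is 5329 bases, its longest transcript 2957 bases and its principal transcript 1632 bases. Per kb of the principal transcript, Cd247 had 5338 ± 613 CPM in CD103Tg and 212 ± 54.6 CPM in B6. On that scale Cd3g had 806 CPM per kb in CD103Tg and 827 in B6, Cd3e 568 in CD103Tg and 616 in B6, and Cd3d 439 in CD103Tg and 415 in B6. Cd247 was then the highest of the 9 genes in CD103Tg and the seventh in B6, where its range overlapped that of Fyn. With the longest transcript, Cd8a came before Cd3e and Cd3g in B6 and after them in CD103Tg, although the ranges of neighbours in that order overlapped. With each length used, Cd247 was above all CD3 partners in CD103Tg and below all of them in B6.

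**Figure D4:**
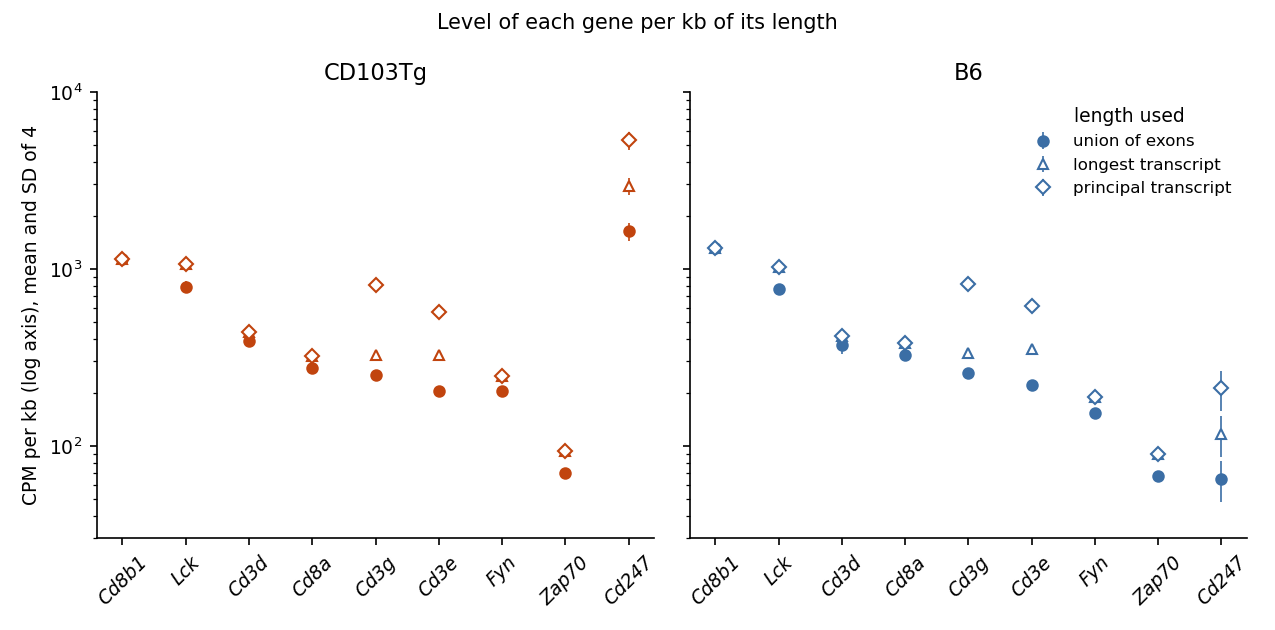
CPM per kb (log axis) of the 9 genes in CD103Tg (left) and B6 (right), as mean and SD of 4 libraries, for 3 definitions of gene length, with genes ordered by their B6 level over the union of exons. Cd247 is the highest gene in CD103Tg with each length; in B6 it is the lowest over the union of exons (64.8 CPM per kb, with a range that overlaps Zap70) but not with the other 2 lengths.

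Of 11 tested constant regions and alternative signalling chains, 4 rose, 4 fell and 3 did not pass, with a median log2 fold change of 0.21. The called share of this list was 72.7%, against 31.2% of all genes. Trac, the constant region of the alpha chain, had 642 ± 31.7 CPM in CD103Tg and 1007 ± 87.1 CPM in B6 (log2 fold change −0.64 ± 0.07, limma adjusted p = 4.9e-05). The beta chain constant regions Trbc1 (413 ± 11.2 CPM in CD103Tg and 518 ± 52.3 CPM in B6) and Trbc2 (848 ± 36.6 CPM in CD103Tg and 1043 ± 116 CPM in B6) fell as well. The gamma chain constant regions rose: Tcrg-C1 by 2.21 ± 0.25, Tcrg-C2 by 2.40 ± 0.32 and Tcrg-C4 by 1.88 ± 0.29 on the log2 scale. These fold changes depend on the pseudocount, and with one of 5 they were 1.59, 1.83 and 1.09. Their levels were low, with 23.4, 33.1 and 10.1 CPM in CD103Tg and 4.10, 5.19 and 1.94 CPM in B6. The copies within the beta and gamma loci are nearly alike in sequence, so the division of reads between them is uncertain. Trdc, the delta chain constant region and the defining marker of gamma delta T cells in this list, had 13.0 ± 2.07 CPM in CD103Tg and 10.8 ± 2.52 CPM in B6 (limma adjusted p = 0.236). The summed level of 4 listed gamma delta markers was 46.6 to 108 CPM in CD103Tg and 16.7 to 27.2 CPM in B6, and 3 of these 4 rose. The part of such cells in the fall of Trac was not tested.

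Fcer1g, which encodes the Fc receptor gamma chain that can take the place of zeta in the receptor, had 2.30 ± 1.115 CPM in CD103Tg and 2.79 ± 0.166 CPM in B6 (limma adjusted p = 0.401). Both levels were far below those of Cd247, and the groups overlapped. Tyrobp and Trat1 made up the rest of the called chains. Their calls were lost in 5 and 6 of the 8 fits that left out a library, with limma adjusted p up to 0.0954 and 0.131. Without B6 replicate 4, Tyrobp had a limma adjusted p of 0.0766.

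Downstream of Zap70, the list held 23 adaptors and enzymes, of which 5 rose, 4 fell and 14 did not pass, with a median log2 fold change of 0.01. The called share was 39.1%, not far from the 31.2% of all genes. Sh2d2a, which encodes an adaptor that binds Lck, had 458 ± 20.4 CPM in CD103Tg and 347 ± 11.6 CPM in B6, and rose by 0.40 ± 0.05 on the log2 scale (limma adjusted p = 0.000136). Malt1, a protease and scaffold on the way to NF-kappa-B, had 142 ± 7.87 CPM in CD103Tg and 197 ± 3.31 CPM in B6, and fell by 0.47 (limma adjusted p = 4.69e-05). Tec, a kinase that acts on phospholipase C, had 32.4 ± 6.12 CPM in CD103Tg and 60.4 ± 3.33 CPM in B6, and fell by 0.89 (limma adjusted p = 9.5e-05). Themis, an adaptor known from thymic selection, fell by 0.32, while Sos2 and Nck2 rose by 0.32 and 0.30. Lat also rose, but lost the call in 7 of the 8 fits that left out a library, with limma adjusted p up to 0.133 (0.0991 without B6 replicate 4).

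Of 21 regulators of Lck and of CD3 phosphorylation, 7 rose, 7 fell and 7 did not pass (66.7% called, against 31.2% of all genes), with a median of −0.01. Csk, the kinase that inhibits Lck, had 135 ± 6.19 CPM in CD103Tg and 141 ± 10.7 CPM in B6 (limma adjusted p = 0.493). Cd5, a surface protein that dampens receptor signals, had 135 ± 2.85 CPM in CD103Tg and 230 ± 15.0 CPM in B6, a log2 fold change of −0.76 ± 0.05 (limma adjusted p = 3.25e-06). Ptprj, a receptor phosphatase, had 8.45 ± 2.42 CPM in CD103Tg and 1.06 ± 0.379 CPM in B6, a log2 fold change of 2.18 ± 0.20, or 2.89 and 1.13 with pseudocounts of 0.1 and 5. Lax1, an adaptor of lymphocytes, had 277 ± 13.8 CPM in CD103Tg and 202 ± 5.51 CPM in B6 (0.45 ± 0.05). Unc119, which activates Lck and Fyn, rose by 0.74 ± 0.10, with 23.6 CPM in CD103Tg and 13.8 CPM in B6. Dok2, Ubash3a, Lime1 and Dok1 also rose. Pag1, Sit1, Cbl and Sla2 fell, as did Cd6 and Ptpn6. The call of Cd6 was lost without CD103Tg replicate 1 (limma adjusted p = 0.0603) and that of Ptpn6 in 5 of the 8 fits that left out a library (up to 0.0912).

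Of the other Src and Syk family kinases, 5 were tested and Src, Blk and Frk were not analysed here. Of the 5, 4 rose, among them Fgr, Syk and Yes1, 1 did not pass, and the median was 0.88; 17.4% of all genes were called higher. All of them stayed far below Lck and Fyn. Fgr, a Src family kinase of myeloid cells, had 23.6 ± 3.98 CPM in CD103Tg and 10.1 ± 0.761 CPM in B6 (log2 fold change 1.13 ± 0.11, limma adjusted p = 2.82e-05). Syk, the relative of Zap70 that is abundant in B cells, had 2.91 ± 0.487 CPM in CD103Tg and 0.485 ± 0.335 CPM in B6 (1.42 ± 0.18, limma adjusted p = 0.000128). At such low levels the fold change depends on the pseudocount, and that of Syk was 2.55 with one of 0.1 and 0.53 with one of 5. Syk reached the minimum mean of 1 CPM only through the CD103Tg libraries. Yes1 had 16.02 CPM in CD103Tg and 8.51 CPM in B6, but its call was lost in 4 of the 8 fits that left out a library (limma adjusted p up to 0.0630). Without CD103Tg replicate 1, 2 of these kinases passed. Myeloid markers summed to 82.4 to 169 CPM in CD103Tg and 58.7 to 124 CPM in B6, with 1 of 4 tested higher. That marker was Cst3, with 73.9 CPM in CD103Tg and 60.3 CPM in B6 and overlapping groups. Lyz2 varied widely within both groups, with 43.3 ± 33.0 CPM in CD103Tg and 19.2 ± 24.1 CPM in B6 (limma adjusted p = 0.194). B cell markers summed to 440 to 611 CPM in CD103Tg and 811 to 900.5 CPM in B6, with 2 of 4 tested higher and 1 lower. Ighm made up most of the B cell sum and fell, with 382 CPM in CD103Tg and 816 CPM in B6, while Cd22 rose, with 87.0 CPM in CD103Tg and 15.5 CPM in B6. The other marker called higher, Cd79a, had 1.86 CPM in CD103Tg and 0.585 CPM in B6. Cd79a reached the minimum mean of 1 CPM only through the CD103Tg libraries. Cd79b had 32.3 CPM in CD103Tg and 32.0 CPM in B6 (limma adjusted p = 0.944), and Ms4a1, which was not tested, 1.27 CPM in CD103Tg and 0.213 CPM in B6. NK cell markers summed to 9.11 to 12.4 CPM in CD103Tg and 7.05 to 10.6 CPM in B6, with 2 of 3 tested higher. Those were Klrb1c (6.97 CPM in CD103Tg and 3.55 CPM in B6) and Klra8 (2.78 CPM in CD103Tg and 0.885 CPM in B6). Klra8 reached the minimum mean of 1 CPM only through the CD103Tg libraries. Klra4, which was not tested, was lower without overlap, with 0.0445 CPM in CD103Tg and 1.68 CPM in B6. Fcgr3 did not pass, and Ncr1, also not tested, had 0.401 CPM in CD103Tg and 0.506 CPM in B6. Plasma cell markers summed to 96.2 to 141 CPM in CD103Tg and 59.3 to 76.6 CPM in B6, with both tested members higher. Xbp1 made up most of that sum, with 99.6 CPM in CD103Tg and 67.5 CPM in B6. Jchain had 9.46 ± 10.6 CPM in CD103Tg and 0.319 ± 0.177 CPM in B6, and reached the minimum mean only through the CD103Tg libraries. Mzb1, which was not tested, had 0.802 CPM in CD103Tg and 0.0426 CPM in B6. Erythroid markers summed to 0.363 to 107 CPM in CD103Tg and 1.07 to 32.2 CPM in B6, with replicate 4 the highest in both groups. Hbb-bs had 71.0 CPM in CD103Tg replicate 4, against 3.81, 1.56 and 0.186 CPM in the other CD103Tg libraries. In B6 it had 22.1 CPM in replicate 4, against 0.738, 2.42 and 2.13 CPM in the others. The 2 listed CD4 T cell markers stayed under 2 CPM in every library and were not tested. Zbtb7b had 0.296 CPM in CD103Tg and 0.710 CPM in B6, and Cd40lg 0.0487 CPM in CD103Tg and 0.560 CPM in B6, each lower without overlap. The part of these cell types in the kinase results was not tested.

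Of 12 tested transcription regulators reported to act at the Cd8 and CD3 loci, 1 rose, 5 fell and 6 did not pass (50.0% called, against 31.2% of all genes), with a median of −0.14. Lef1 had 252 ± 25.6 CPM in CD103Tg and 539 ± 25.01 CPM in B6 (log2 fold change −1.10 ± 0.07, limma adjusted p = 1.78e-06), and Tcf7, its relative, 745 ± 37.5 CPM in CD103Tg and 1212 ± 97.3 CPM in B6 (−0.70 ± 0.07, limma adjusted p = 2.46e-05). Ikzf1, which encodes Ikaros, had 189 ± 17.4 CPM in CD103Tg and 281 ± 25.5 CPM in B6 (−0.57 ± 0.08, limma adjusted p = 0.000227). Runx1 and Ets1 fell too, by 0.73 and 0.41, and Gata3 rose by 0.39. Runx3, the Runx factor of mature CD8 T cells, had 180 ± 17.6 CPM in CD103Tg and 167 ± 11.1 CPM in B6 (limma adjusted p = 0.319).

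**Figure D5:**
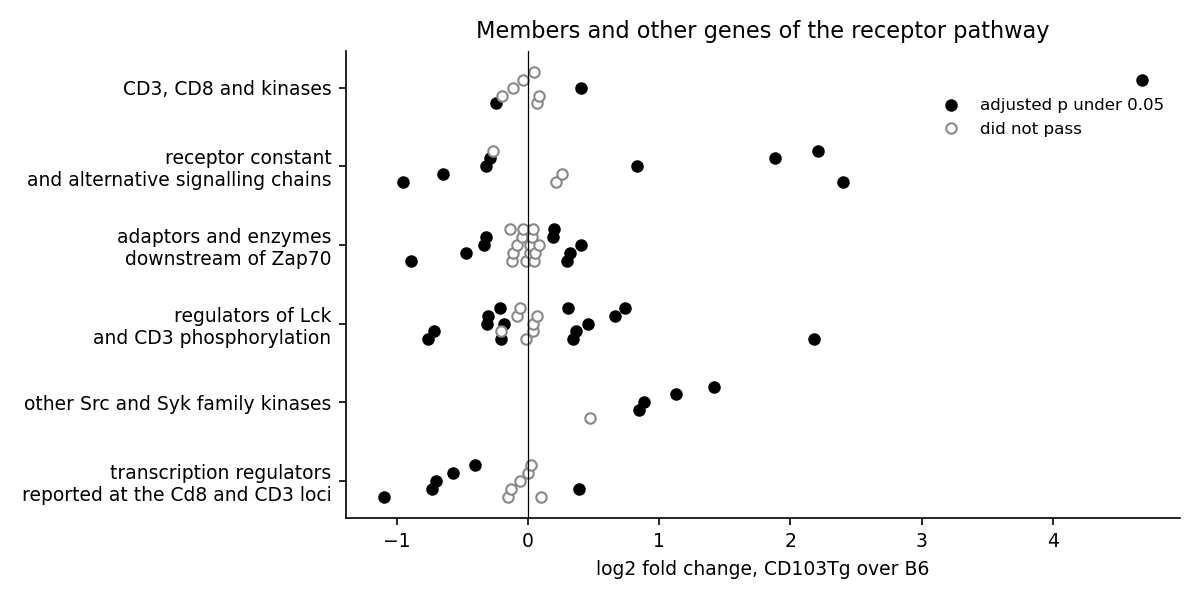
Log2 fold change (CD103Tg over B6) of the 9 genes and of each tested gene of 5 pathway lists, 1 row for each list, with filled points for an adjusted p under 0.05 and open points for genes that did not pass. Cd247 at 4.68 lies beyond every other gene plotted, and each list except the other Src and Syk kinases has genes on both sides of 0.

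Genes next to the members were examined because position played no part in their choice. Within 500 kb of the members, 81 other genes were listed and 67 tested, of which 9 rose and 9 fell, or 26.9% against 31.2% of all genes. Around Cd247, 5 genes were tested. Rcsd1, whose start lies 142 kb upstream of that of Cd247 in the genome's numbering, had 238 ± 11.2 CPM in CD103Tg and 277 ± 11.5 CPM in B6 (log2 fold change −0.22 ± 0.05, limma adjusted p = 0.00901). Mpc2 had 50.3 ± 0.939 CPM in CD103Tg and 43.6 ± 2.93 CPM in B6 (0.20 ± 0.06, limma adjusted p = 0.0251), and the other 3 did not pass. No tested neighbour thus shared a change of the size seen in Cd247. Around Fyn, 7 genes were tested and 0 passed.

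In the region around the CD3 cluster on chromosome 9, 12 genes were tested near Cd3d. Of these, 2 rose and 5 fell (58.3% called, against 31.2% of all genes). Il10ra, an interleukin-10 receptor chain, had 187 ± 8.59 CPM in CD103Tg and 59.8 ± 8.15 CPM in B6 (log2 fold change 1.64 ± 0.08, limma adjusted p = 5.02e-07). Jaml, a junctional adhesion protein, had 370 ± 21.4 CPM in CD103Tg and 167 ± 11.4 CPM in B6 (1.14 ± 0.06, limma adjusted p = 6.54e-07). Cxcr5, the chemokine receptor for B cell follicles, had 11.6 ± 6.45 CPM in CD103Tg and 96.9 ± 5.73 CPM in B6 (−3.07 ± 0.24, limma adjusted p = 6.07e-06). The CD3 genes that lie between them did not pass. Ddx6 and Kmt2a fell by 0.54 and 0.50, and Bcl9l and Mpzl3 fell by less. Near the CD8 genes Rmnd5a and Chmp3 fell, near Lck Rnf19b, Tmem39b and Yars rose and Khdrbs1 fell, and near Zap70 Actr1b, Arid5a and Cox5b rose. Of these 18 called neighbours, 8 (Mpc2, Bcl9l, Mpzl3, Chmp3, Yars, Actr1b, Arid5a and Cox5b) lost the call when at least 1 of the 8 libraries was left out, with limma adjusted p up to 0.125. Without B6 replicate 4, the limma adjusted p was 0.0538 for Mpc2, 0.0660 for Mpzl3 and 0.108 for Cox5b. The neighbours called numbered 10 without CD103Tg replicate 2 and 10 without CD103Tg replicate 3.

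For each member that passed, the genes with the most similar pattern over the 8 libraries were found among 8855 candidates, by the root mean square difference of centred log2 values. Those most like Cd247 were Ifi44 (difference 0.43), an interferon-induced gene, Fgl2 (0.53) and Lgals3 (0.57), which encodes galectin 3. Ifi44 had 22.5, 32.2, 38.1 and 30.6 CPM in CD103Tg, against 1.03, 0.624, 1.246 and 0.956 CPM in B6. Those most like Fyn were Fam160a2 (0.03), Il10rb (0.04) and Lpcat4 (0.04), and those most like Cd8a were Hvcn1 (0.03), Wdr46 (0.03) and Rcl1 (0.03). Each of these values describes likeness over 8 libraries of 2 groups only.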

How the data were processed

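RNA-seq libraries of 8 samples were made with SMART-Seq v4 and Nextera XT, per the labels' protocols; these kits have no molecular identifiers and do not mark strand. Per the submitters' processing notes, the tools were STAR 2.7.0f, RSEM, cutadapt 1.18 and bcl2fastq 2.17 and the build was GRCm38 (mm10). The authors deposited 1 table of normalized signal, per the labels TMM-scaled CPM of a filtered gene set, not counts. All 13245 identifiers matched GENCODE M21, which gave positions and lengths. Per library, 63.0% to 65.2% of values were whole reads within 0.005 of a read, so reads are called estimated.

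The test was limma 3.58.1 (trend, two-sided, genotype as the only term) in R 4.3.3, on log2(CPM + 1) of genes that averaged 1 CPM or more. The fit covered 11503 genes, and the test was checked on simulated data. Fold changes are on that scale, which understates the change of low genes. Ratios were compared with an exact permutation test. Python 3.11.15, pandas 2.3.3, numpy 2.4.6, scipy 1.17.1 and matplotlib 3.10.9 were used for the rest.

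The members, pathway and marker lists were chosen with earlier results of these data known. Genes named are the members, the 3 with the smallest p in each pathway list (and all that passed where fewer than 6 did), the neighbours that passed and the 3 most similar patterns; Itgae, Pou2f1, Csk, Runx3, Trdc, Fcer1g, markers and the other called list genes were added. A few genes of these lists are not reported here. The settings varied were pseudocounts of 0.1 and 5, minimum means, other scalings, voom on estimated reads, leaving out libraries, gene lengths and a replicate block.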

Additional observations from a re-analysis of the deposited data

Results flagged for a closer look

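Of 34 groups of 4 libraries examined (the CPM of each member and each ratio, in each genotype), 2 held a library far from the other 3, and chance alone flags about 1 group in 20. Both are B6 replicate 4, and both use its Cd247 value, so they are not independent of each other. Its Cd247 level was 478 CPM, with the other B6 libraries at 285 to 315 CPM, and the gap to the nearest library was 0.847 of the group's range. Its ratio of Cd247 to Cd3e was 0.587, with the other B6 libraries at 0.318 to 0.328, and the gap was 0.962 of the range. The same library had 174 CPM of Itgae, with the other B6 libraries at 37.5 to 51.4 CPM. Whether that library held CD103Tg material was not tested.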

How the results depend on the processing

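Cd247 (log2 fold change 4.31 to 4.89), Fyn (0.37 to 0.47) and Cd8a (−0.27 to −0.21) kept their calls in all 21 alternative fits. Members called lower numbered 2 in place of 1, Cd8b1 being added, under quantile normalization and under equal totals with or without Itgae and Cd247. With 1 library left out they numbered 1 to 2 (2 without B6 replicate 4 or CD103Tg replicate 1). Lck turned to −0.024 under quantile normalization, and Pou2f1 (−0.20 to 0.039 with 1 library left out) to 0.039 without B6 replicate 4 and to 0.015 without both libraries numbered 4, a setting chosen after seeing the data, as was the principal transcript length. The called kinases of the other Src and Syk families numbered 2 at a minimum mean of 5 CPM and 2 to 4 with 1 library left out (2 without CD103Tg replicate 1), and the called neighbours 10 to 17. All genes called numbered 2771 to 3968. No ratio changed its direction. Same-number correlations were 0.22, 0.35, −0.08 and 0.12, so 1 of 4 pairs missed the 0.1 required to treat the numbers as pairs; CD103Tg replicates 1 and 2 correlated best with their own number, and replicates 3 and 4 with another; with the replicate block 3682 genes passed, the members kept their calls, and a sign-flip test of the ratios could not give a p below 0.125. Depth did not limit the members, the lowest of which, Zap70, had at least 183 CPM, but the values carry no molecular identifiers and no cell counts.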
